A study of Mus musculus with 12 samples.

Results

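The genes described here were 39 mouse genes of the interferon and double-stranded RNA response, taken by gene symbol from a table of 51826 entries on hearts of CUG960 +dox and of MHCrtTA control mice. All 39 symbols had an entry, and all 39 had enough counts to be tested in atria and in ventricles. The genes were listed for what they do, by a rule that uses no measured value, although earlier results of these data were known at the time. The question put to them was whether RNA with an expanded CUG repeat raised innate RNA sensing in the heart.

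CUG960 +dox mice were homozygous for TREDT960I, a dox-responsive transgene with 960 CUG repeats in a human DMPK context, and hemizygous for MHCrtTA, which expresses the reverse tetracycline transactivator from a cardiomyocyte promoter. Control mice were hemizygous for MHCrtTA alone and also received dox, so that strain (FvB), sex (female), age (10 weeks), dox from postnatal day 1 and the transactivator were shared by both genotypes. Atria and ventricles of 3 controls (V327, V333 and V334) and 3 CUG960 mice (V119, V120 and V123) gave 12 poly(A) RNA-Seq libraries of 116127966 to 160676189 counts. The repeat RNA is made in cardiomyocytes, whereas the libraries hold RNA of all cells of a chamber. In such tissue, fewer cells of a type and less RNA per cell cannot be told apart. The transgene transcript was not analysed here.

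Cells detect double-stranded RNA through the endosomal receptor TLR3 and the cytosolic helicases RIG-I and MDA5, which signal through the adaptor MAVS to induce type I interferon. Interferon acts through its receptor on factors that include STAT2 and IRF9, which bind the interferon-stimulated response element (ISRE) and switch on a large set of antiviral genes, while interferon-γ acts through factors that bind the gamma-activated site (GAS). Other proteins respond to the RNA itself, among them the kinase PKR, the editing enzyme ADAR and the oligoadenylate synthetases. Long CUG repeats fold into hairpins, and for this reason have been studied as possible ligands of such proteins.

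Promoters were read to show which of these elements the members carry. RefSeq promoters on GRCm38.p6, each from 250 bases before to 50 bases after a start site, were matched for 29 of the 39 members (35 promoters). The ISRE core, spelled GAAANNGAAA and searched on both strands, was in at least 1 promoter of 14 of these 29 members (48.3%) and of 3.99% of all 27025 genes, and in 3.44% of all 32851 promoters. The GAS core, TTCNNNGAA, was in 7 of 29 members (24.1%), in 9.55% of all genes and in 8.3% of all promoters. The sites below stand upstream of the start of members that the results turn on, with the matched core in capitals, 5′ to 3′ along the strand of the gene, and a core on the opposite strand reads as its complement. The Bst2 site shares bases with a GAS core of the same promoter. Neither of the 2 Ifit2 promoters in the RefSeq table held the ISRE core in this window, and the GAS core shown was the only match.
Ifit1 (ISRE core, chr19:34640794-34640823, plus strand): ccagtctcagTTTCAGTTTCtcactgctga
Isg15 (ISRE core, chr4:156200871-156200900, minus strand): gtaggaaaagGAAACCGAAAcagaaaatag
Rsad2 (ISRE core, chr12:26456553-26456582, minus strand): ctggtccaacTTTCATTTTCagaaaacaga
Bst2 (ISRE core, chr8:71537583-71537612, minus strand): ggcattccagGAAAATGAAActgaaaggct
Gbp2 (ISRE core, chr3:142620594-142620623, plus strand): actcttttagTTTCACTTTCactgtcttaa
Irf1 (GAS core, chr11:53769914-53769942, plus strand): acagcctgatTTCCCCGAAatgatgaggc
Ifit2 (GAS core, chr19:34550444-34550471, plus strand): catgggagcTTCCTGGAAgaatggataa

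Levels are given in CPM, the read count of a gene scaled to a common library size with TMM factors over all 12 libraries, on which 1 CPM stood for about 138 counts in a library. Fold changes come from a separate fit of each chamber, so they differ slightly from ratios of the CPM values. A gene was called when its P value, adjusted over all genes tested in that comparison, was under 0.05 and its fold change at least 1.5. Values in control libraries are listed for V327, V333 and V334 in this order, and in CUG960 libraries for V119, V120 and V123.

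The libraries were first checked against their labels. Nppa, which encodes atrial natriuretic peptide, ranged from 11401 to 16582 CPM in atrial and from 48.6 to 224 CPM in ventricular libraries, and Myl2, the ventricular myosin light chain, from 8505 to 10524 CPM in ventricular and from 8.82 to 33.5 CPM in atrial libraries. Myl7, the atrial light chain, was at 8.02, 4.98 and 19.3 CPM in control ventricles and at 0.192, 0.304 and 55.9 CPM in CUG960 ventricles. A control library, the atria of V334, stood apart in myeloid and stress genes. Lyz2, the lysozyme of macrophages and neutrophils, was at 395 CPM there and between 128 and 183 CPM in the other 5 atrial libraries, and Atf3, an immediate stress-response factor, was at 352 CPM there and between 3.76 and 76.7 CPM in the other 5. Several results are therefore also given without V334.

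Few of the 39 genes were called, as was also the case over all genes tested. Of the 39 members, Ifit2 alone was called higher in CUG960 than in control atria, and no member was called lower; over all genes, 3.37% were called higher and 2.12% lower in this comparison. In ventricles Ifit2 was called higher and Rsad2 lower, against 3% and 1.76% of all genes. Without V120, V327 or V333 no member was called in atria, and without V334 there were 3 (Ifit2, Ifit1 and Usp18). In ventricles 1 was called without V119 or without V120 and 5, all lower, without V327. The shares of all genes above belong to the full fits, and those of the fits without a mouse are not given here. The median log2 fold change of the 39 members was 0.008 in atria and −0.289 in ventricles, beside −0.009 over all genes tested in either chamber. The 95% intervals held the possible rise under 2-fold for 32 of 39 members in atria and for 37 of 39 in ventricles, and under 1.5-fold for 19 and 34 of 39. The highest upper limits were those of Mx1 in atria (3.08-fold) and of Iigp1 in ventricles (2.13-fold).

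**Figure D1:**
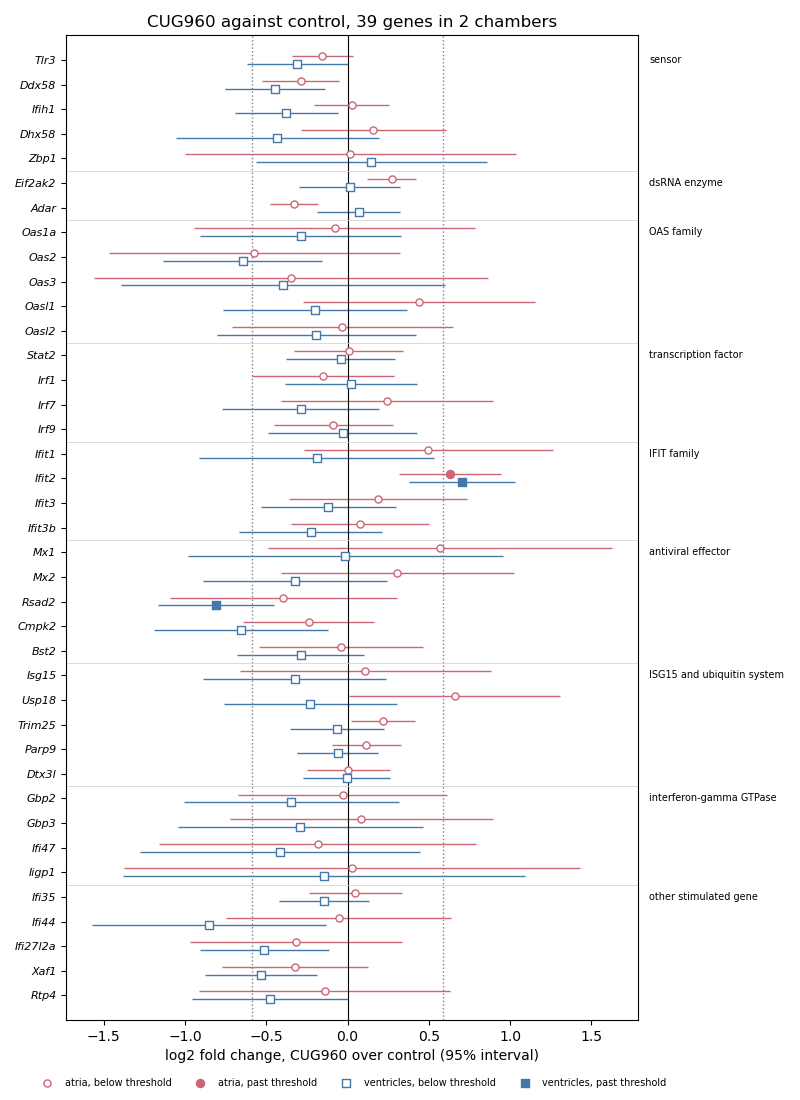
Log2 fold change of CUG960 over control for the 39 genes (rows, grouped by role) in atria (circles) and ventricles (squares), with 95% intervals from edgeR and dotted lines at a 1.5-fold change either way. Filled symbols passed the threshold: Ifit2 in both chambers (0.63 and 0.70) and Rsad2 in ventricles (−0.81). Of the ventricular estimates, 34 of 39 lie left of 0, and 24 of 39 do without mouse V334 and 38 of 39 without V327.

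Ifit2, an interferon-induced protein with tetratricopeptide repeats, was the member that rose in both chambers. It lies on chr19:34550694-34576419 (plus strand, GENCODE M21 on GRCm38) beside Ifit1, Ifit3 and Ifit3b. In atria it was at 6.03, 6.41 and 8.09 CPM in control mice and at 9.50, 12.1 and 10.2 CPM in CUG960 mice. Every CUG960 atrial library was above every control library, and the means were 6.84 ± 1.10 and 10.6 ± 1.34 CPM (SD, n = 3 each). The log2 fold change was 0.63 (SE 0.14), or 1.55-fold with a 95% interval of 1.24 to 1.93 (adjusted P = 0.0205, edgeR). In ventricles Ifit2 was at 13.5, 16.9 and 20.3 CPM in controls and at 30.9, 25.0 and 26.7 CPM in CUG960 mice. The groups were again apart, with a log2 fold change of 0.70 (SE 0.15), or 1.63-fold with an interval of 1.298 to 2.04 (adjusted P = 0.0178, edgeR). Over all genes tested in both chambers, 1.33% were called higher in both. The calls rested on single mice. Ifit2 lost its call in atria without V120 (adjusted P = 0.0764), without V327 (0.0632) or without V333 (0.0744), and in ventricles without V119 (0.0589) or without V327, where the log2 fold change was 0.57. Over 12 alternatives for each chamber, its log2 fold change ranged from 0.52 to 0.77 (atria) and from 0.57 to 0.86 (ventricles).

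The neighbouring Ifit genes did not pass the test. These encode proteins that bind viral RNA or its caps and hold back translation. Ifit1 was at 1.77, 2.45 and 4.54 CPM in control atria and at 4.65, 4.75 and 2.96 CPM in CUG960 atria, and the groups overlapped (log2 fold change 0.50, SE 0.33, adjusted P = 0.359). In ventricles its log2 fold change was −0.19 (adjusted P = 0.759). Without V334, whose atria held the highest control value, the atrial log2 fold change of Ifit1 was 0.96 (adjusted P = 0.0489). Its ventricular value without V334 was 0.339 (adjusted P = 0.371, edgeR). Ifit3 had log2 fold changes of 0.19 and −0.12 and Ifit3b of 0.08 and −0.23 in atria and ventricles, none past an adjusted P of 0.517. The Ifit3 and Ifit3b transcripts were identical at 97.8% of 1700 aligned positions, so the division of reads between them is uncertain, whereas Ifit2 was 68% identical to Ifit3 in the part that aligned.

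Rsad2, which encodes viperin, an enzyme that makes an antiviral nucleotide, was the member that fell. It lies on chr12:26442746-26456452 (minus strand) beside Cmpk2, a mitochondrial nucleotide kinase that supplies the same step. In ventricles Rsad2 was at 10.8, 16.1 and 14.7 CPM in controls and at 8.74, 6.73 and 8.21 CPM in CUG960 mice. The groups did not overlap, and the means were 13.9 ± 2.73 and 7.90 ± 1.04 CPM (SD, n = 3 each). The log2 fold change was −0.81 (SE 0.16), or 0.570-fold with an interval of 0.445 to 0.730 (adjusted P = 0.0139, edgeR). In atria its level was lower and the groups overlapped, at 1.77, 2.96 and 3.66 CPM against 2.02, 2.87 and 1.49 CPM (log2 fold change −0.39, adjusted P = 0.425). The ventricular call was lost without V120 (adjusted P = 0.0564) and when all 12 libraries shared a fit (0.0553). Cmpk2 had a ventricular log2 fold change of −0.65 (SE 0.24, adjusted P = 0.119). It was called lower by DESeq2 (adjusted P = 0.0262).

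**Figure D2:**
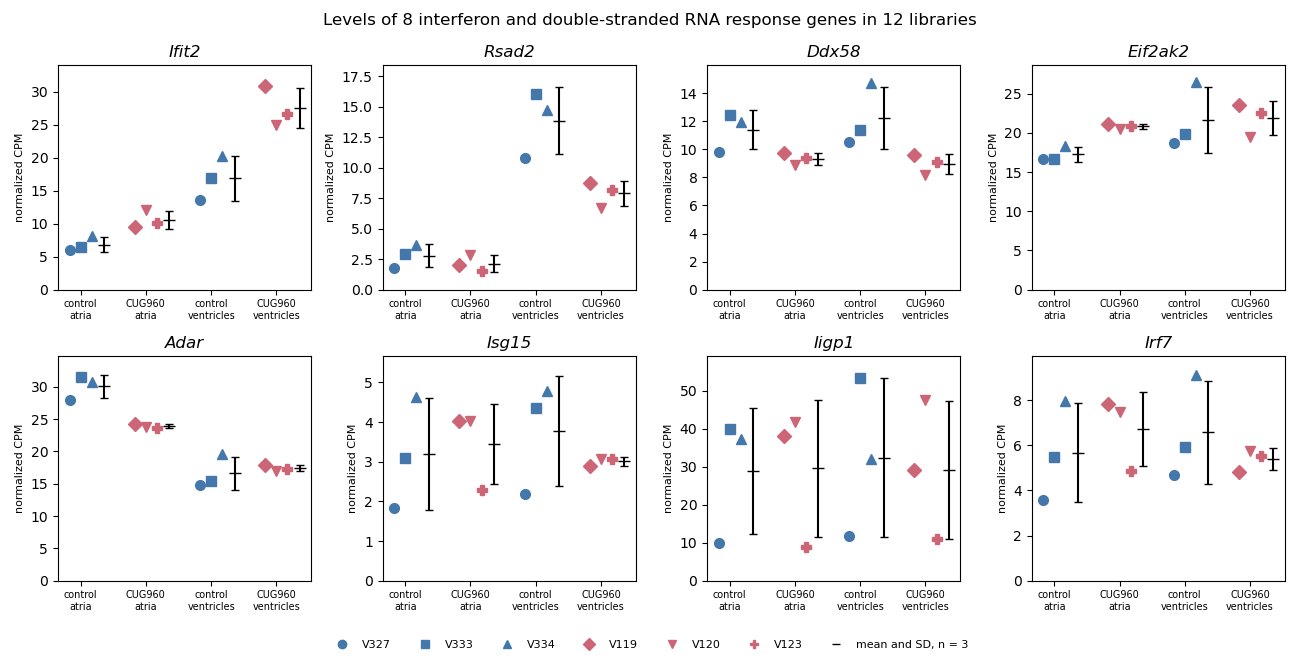
Normalized CPM (vertical axes start at 0) of 8 members in each of the 12 libraries, by group on the horizontal axis; symbols mark the mouse, and the black mark beside each group is its mean with SD (n = 3). Ifit2 is apart between genotypes in both chambers and Rsad2 in ventricles, while for Isg15, Irf7 and Iigp1 the genotypes overlap in both chambers.

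The RNA sensors themselves were not called in either chamber. Ddx58, which encodes RIG-I, was at 9.80, 12.4 and 11.9 CPM in control atria and at 9.70, 8.89 and 9.35 CPM in CUG960 atria. In ventricles it was at 10.5, 11.4 and 14.7 CPM in controls and at 9.61, 8.20 and 9.11 CPM in CUG960 mice. All CUG960 libraries were below all controls in each chamber, which was the case for 6.69% of all genes. The log2 fold changes were −0.29 (SE 0.10, adjusted P = 0.103) and −0.44 (SE 0.14, adjusted P = 0.0725), and without V334 the ventricular value was −0.285 (adjusted P = 0.187). Over 12 alternatives the ventricular value ranged from −0.539 to −0.285, without a call.

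Ifih1, which encodes MDA5, the sensor of long double-stranded RNA, was at 10.3, 13.2 and 12.4 CPM in control atria and at 12.2, 11.8 and 12.6 CPM in CUG960 atria. In ventricles it was at 7.11, 7.27 and 9.14 CPM in controls and at 6.76, 5.19 and 6.16 CPM in CUG960 mice. The ventricular groups did not overlap and the atrial groups did, with log2 fold changes of −0.38 (SE 0.14, adjusted P = 0.129) and 0.03 (SE 0.10, adjusted P = 0.893). Without V334 the ventricular value was −0.248 (adjusted P = 0.332). Over 12 alternatives it ranged from −0.464 to −0.248, without a call. The interval of the atrial fold change was 0.868 to 1.20.

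Dhx58 encodes LGP2, a helicase that modulates the other cytosolic sensors. It was at 1.75, 1.74 and 2.72 CPM in control atria and at 2.44, 2.28 and 2.22 CPM in CUG960 atria (log2 fold change 0.16, adjusted P = 0.627). Its ventricular levels were 0.931, 1.26 and 1.85 CPM against 1.13, 0.768 and 1.10 CPM (log2 fold change −0.43, adjusted P = 0.371). Without V334 the log2 fold change of Dhx58 was 0.405 in atria (adjusted P = 0.142, edgeR) and −0.132 in ventricles (adjusted P = 0.818, edgeR). The groups overlapped in both chambers.

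Tlr3, the endosomal receptor, was at 12.7, 12.8 and 12.3 CPM in control atria and at 10.6, 10.9 and 12.4 CPM in CUG960 atria (log2 fold change −0.15, adjusted P = 0.240). Its ventricular levels were 10.0, 10.2 and 11.9 CPM against 10.2, 7.14 and 8.63 CPM (log2 fold change −0.31, adjusted P = 0.202). In each chamber 1 CUG960 library lay within the control range. Zbp1, a sensor of Z-form nucleic acid linked to necroptosis, was low and spread widely. It was at 0.517, 1.07 and 2.05 CPM in control atria and at 1.54, 1.29 and 0.868 CPM in CUG960 atria, and at 0.389, 0.722 and 0.839 CPM against 0.679, 0.891 and 0.584 CPM in ventricles, and its atrial fold change had an interval of 0.499 to 2.05.

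The enzymes that act directly on double-stranded RNA shifted by less than 1.5-fold in atria. Eif2ak2, which encodes PKR, was at 16.7, 16.7 and 18.3 CPM in control atria and at 21.1, 20.5 and 20.9 CPM in CUG960 atria. The groups did not overlap, and the log2 fold change of 0.27 (SE 0.07, adjusted P = 0.0296, edgeR) passed the P value limit and not the fold limit. It missed the P value limit without V119, V120, V123, V327 or V333 (adjusted P up to 0.113) and with all 12 libraries in 1 fit (0.151). Over all genes, 14.6% passed that P value limit in atria. In ventricles Eif2ak2 was at 18.7, 19.8 and 26.5 CPM in controls and at 23.6, 19.4 and 22.5 CPM in CUG960 mice, and the groups overlapped (log2 fold change 0.01, adjusted P = 0.966).

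Adar, whose product edits adenosine to inosine in double-stranded RNA, shifted the opposite way. It was at 28.0, 31.4 and 30.7 CPM in control atria and at 24.2, 23.8 and 23.7 CPM in CUG960 atria. All CUG960 libraries were lower, by a log2 fold change of −0.33 (SE 0.06, adjusted P = 0.0132, edgeR), again under the fold limit, and without V333 or V334 it missed the P value limit (adjusted P up to 0.0589). Its ventricular levels of 14.8, 15.4 and 19.6 CPM and 17.8, 16.9 and 17.3 CPM overlapped (log2 fold change 0.07, adjusted P = 0.760). The atrial effect minus the ventricular effect was −0.40 on the log2 scale (SE 0.13, adjusted P = 0.216, edgeR).

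The oligoadenylate synthetases (Oas1a, Oas2, Oas3, Oasl1 and Oasl2) make short oligoadenylates when they bind double-stranded RNA, although some members of the family lack this activity. None of the 5 was called in either chamber. Oas1a was at 0.740, 1.10 and 2.39 CPM in control atria and at 1.34, 1.28 and 1.38 CPM in CUG960 atria, and at 1.27, 2.26 and 2.67 CPM against 1.31, 2.03 and 1.73 CPM in ventricles. The CUG960 libraries lay within the control range in both chambers (adjusted P = 0.914 and 0.559). Oas2 was apart in ventricles, at 2.77, 3.19 and 4.51 CPM in controls and at 1.76, 2.67 and 2.25 CPM in CUG960 mice. Its log2 fold change was −0.65 (SE 0.22, adjusted P = 0.0953), and DESeq2 called it lower (adjusted P = 0.0276). Without V334, the highest control, it was −0.415 (adjusted P = 0.266, edgeR). Over 12 alternatives it ranged from −0.798 to −0.415. Oas3 was the member with the lowest level per length, and its libraries held 11 to 88 counts.

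A list of 35 sensors, adaptors and kinases outside the 39 members held Adarb1, which encodes the editing enzyme ADAR2 and was called higher in CUG960 atria. It was at 42.9, 46.9 and 44.7 CPM in control atria and at 56.0, 68.2 and 81.0 CPM in CUG960 atria (log2 fold change 0.61, SE 0.12, adjusted P = 0.0141, edgeR). All CUG960 libraries were higher, although the call was lost without V120 (adjusted P = 0.0525) or without V327 (0.0538), and without V123 the log2 fold change of 0.47 was under the fold limit. Its ventricular levels were 25.1, 21.0 and 29.2 CPM against 25.4, 25.7 and 27.9 CPM, and overlapped. No gene of this list was called in ventricles. Mavs, the adaptor of RIG-I and MDA5, was lower in CUG960 ventricles in every library by a log2 fold change of −0.37 (SE 0.08, adjusted P = 0.0218, edgeR), under the fold limit, and missed the P value limit without V119, V123 or V327 (adjusted P up to 0.0859).

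The transcription factors of the interferon response were not called. Stat2, Irf9, Irf7 and Irf1 had log2 fold changes of 0.01, −0.09, 0.25 and −0.15 in atria and of −0.04, −0.03, −0.29 and 0.02 in ventricles, and the lowest adjusted P among them was 0.446. Irf7, the factor that amplifies type I interferon, was at 3.59, 5.49 and 7.95 CPM in control atria and at 7.82, 7.50 and 4.86 CPM in CUG960 atria. The genotypes overlapped, and the spread within each group exceeded the distance between their means. Without V334 the log2 fold change of Irf7 was 0.566 in atria and 0.023 in ventricles, and it was not called.

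The ISG15 system, in which Isg15 is a ubiquitin-like modifier, Usp18 removes it and restrains receptor signaling, and Trim25, Parp9 and Dtx3l encode ubiquitin and ADP-ribose ligases or partners, held no called gene. Isg15 was at 1.84, 3.10 and 4.64 CPM in control atria and at 4.02, 4.03 and 2.28 CPM in CUG960 atria. In ventricles it was at 2.18, 4.36 and 4.78 CPM in controls and at 2.88, 3.08 and 3.06 CPM in CUG960 mice. Isg15 overlapped between genotypes in both chambers (log2 fold change 0.11 and −0.33, adjusted P = 0.864 and 0.462). Without V334 its log2 fold change was 0.479 in atria (adjusted P = 0.374, edgeR) and −0.115 in ventricles (adjusted P = 0.835, edgeR). Usp18 had an atrial log2 fold change of 0.66 (SE 0.28, adjusted P = 0.159), which without V334 was 1.01 (adjusted P = 0.0339).

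Among the remaining antiviral genes, Bst2, Ifi27l2a and Gbp2 had the highest levels per kilobase of exon. Bst2, whose product tethers budding virus particles, was at 19.1, 25.6 and 26.6 CPM in control atria and at 27.4, 26.8 and 15.2 CPM in CUG960 atria, and at 10.4, 14.8 and 16.3 CPM against 11.3, 13.1 and 9.50 CPM in ventricles. The groups overlapped in both chambers (log2 fold change −0.04 and −0.29, and 0.046 and −0.154 without V334). Ifi27l2a, an interferon-induced protein of membranes, was at 6.27, 10.4 and 13.4 CPM in control atria and at 9.67, 8.83 and 5.61 CPM in CUG960 atria. In ventricles it was at 6.38, 6.03 and 9.28 CPM against 4.75, 5.88 and 4.59 CPM, where the groups did not overlap (log2 fold change −0.51, SE 0.18, adjusted P = 0.104, and −0.288 with adjusted P = 0.281 without V334). Xaf1, a proapoptotic interferon-induced gene, was apart in ventricles as well (log2 fold change −0.53, SE 0.15, adjusted P = 0.0596, and −0.414 with adjusted P = 0.164 without V334). Over 12 alternatives the ventricular values ranged from −0.629 to −0.288 for Ifi27l2a and from −0.674 to −0.414 for Xaf1. Mx1 was low, with 11 to 85 counts in a library, and Mx2 is annotated as a polymorphic pseudogene.

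The ventricular estimates leaned low. There, 34 of 39 members (87.2%) had a negative log2 fold change, beside 51.4% of all genes tested, and 6 members (Rsad2, Ddx58, Oas2, Ifih1, Ifi27l2a and Xaf1) were lower in every CUG960 library than in every control, beside 15% of all genes, and Ifit2 was higher, beside 16.2%. In atria 18 of 39 were negative (46.2%), with Adar and Ddx58 lower without overlap, beside 17.2% of all genes, and Ifit2, Eif2ak2 and Trim25 higher, beside 18.5%. The atrial count depended on the mice, with 28 of 39 negative without V327 and 8 of 39 without V334. The ventricular lean was carried in part by V334, which held the highest value of the 6 ventricular libraries for 28 of 39 members. Without V334, 24 of 39 members (61.5%) were negative and the median was −0.09 (0.000 over all genes). Without V327, the control that was lowest for 17 members, 38 of 39 were negative with a median of −0.47, and Rsad2, Cmpk2, Ifi44, Xaf1 and Rtp4 were called lower.

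Markers of other cell types moved in the same libraries. All 12 endothelial markers had negative log2 fold changes in both chambers (median −0.328 in atria and −0.382 in ventricles), beside 51.4% of all genes in each. Of these markers, Pecam1 and Tek were called lower in atria (2.12% of all genes) and Cldn5 and Eng in ventricles (1.76%). Their summed level in ventricles was 1376, 1201 and 1339 CPM in controls and 961, 958 and 1022 CPM in CUG960 mice, and in atria it was 1430, 1642 and 1272 CPM against 1072, 1215 and 1099 CPM. No marker of the list was at 0 in all libraries, and Eng, a co-receptor of endothelial cells, was the most abundant. The genotypes did not overlap in either sum. The part of the endothelial difference in the ventricular lean was not tested.

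Markers of pericytes and smooth muscle, the cells that wrap vessels, were negative for 7 of 8 in ventricles (median −0.363), beside 51.4% of all genes. Of these markers, Myh11 and Tagln were called lower (1.76% of all genes) and 5 of 8 were lower without overlap (15%). Their summed level there, led by Rgs5, was 1204, 1109 and 1234 CPM in controls and 970, 919 and 910 CPM in CUG960 mice, and the genotypes did not overlap. In atria 5 of 8 were negative (median −0.191), and Tagln was called higher. Fibroblast markers were negative for 9 of 9 in atria (median −0.290) and for 3 of 9 in ventricles (median 0.007, none called), beside 51.4% of all genes in each. Postn, an extracellular matrix protein of activated fibroblasts, was called lower in atria (2.12% of all genes). The atrial sums of the fibroblast markers, led by Gsn, overlapped, at 7129, 8383 and 8445 CPM in controls and at 6816, 7587 and 6301 CPM in CUG960 mice. Markers of other leukocytes held no called gene among 16 tested in either chamber, and 11 were negative in atria and 13 in ventricles (medians −0.074 and −0.264). Cardiomyocyte markers were negative for 6 of 9 in atria and 5 of 9 in ventricles (medians −0.103 and −0.121), with Tnnc1 called lower in atria and Ryr2 in ventricles. No marker of these 4 lists was at 0 in all libraries, and their part in the values of the 39 genes was not tested.

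Macrophage markers were negative for 12 of 14 in atria and for 13 of 14 in ventricles (medians −0.188 and −0.148), beside 51.4% of all genes in each. Lyve1, carried by resident macrophages and lymphatic vessels, was called lower in atria (2.12% of all genes). Their summed level, led by Lyz2, was 463, 415 and 833 CPM in control atria and 435, 507 and 432 CPM in CUG960 atria, and 203, 183 and 240 CPM against 196, 215 and 168 CPM in ventricles. The genotypes overlapped in both chambers, and none of these markers was at 0 in all libraries. Whether these cells contributed to the values of the 39 genes was not tested.

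**Figure D3:**
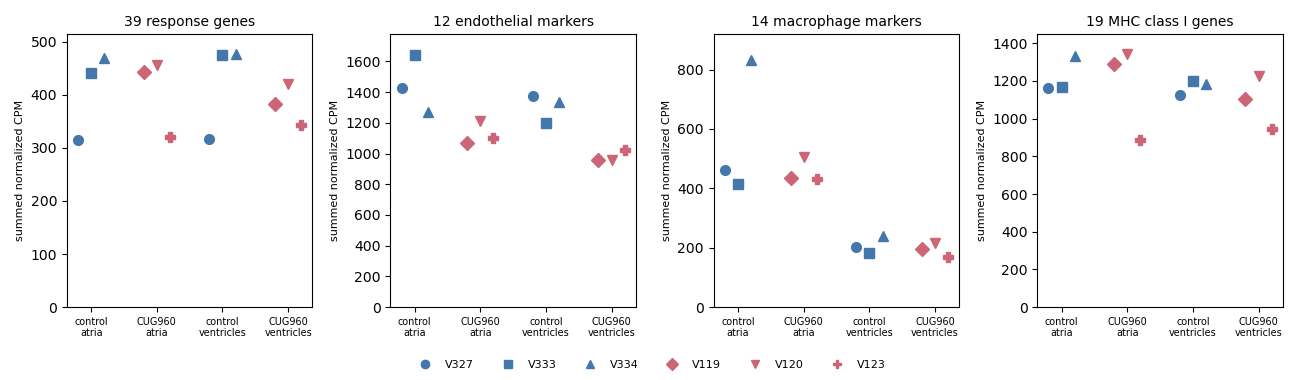
Summed normalized CPM per library (vertical axes start at 0) of the 39 response genes, of 12 endothelial and 14 macrophage markers, and of 19 genes of MHC class I antigen presentation, by group; symbols mark the mouse. The response genes overlap between genotypes in both chambers, the endothelial sums do not, and the atria of V334 have the highest macrophage sum (833 CPM).

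Summed over all 39 genes, the response was at 315, 440 and 469 CPM in control atria and at 443, 456 and 320 CPM in CUG960 atria. In ventricles the sum was 316, 475 and 477 CPM in controls and 382, 420 and 343 CPM in CUG960 mice. The low atrial sums belonged to V327 and V123, 1 mouse of each genotype, and these mice also had the lowest sums of their genotype in ventricles.

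Mice of a genotype differed more in these genes than in most. The median ratio of the highest to the lowest of 3 mice over the 39 members was 1.74 in control atria, 1.49 in CUG960 atria, 1.72 in control ventricles and 1.299 in CUG960 ventricles. Over all genes of at least 1 CPM, the medians were 1.12, 1.15, 1.18 and 1.16. Adar and Eif2ak2 had atrial ratios of 1.12 and 1.10 in controls and of 1.03 each in CUG960 mice, close to or below the median of all genes. In ventricles their ratios were 1.32 and 1.42 in controls, above that median, and 1.05 and 1.22 in CUG960 mice.

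The GTPases of the interferon-γ response (Gbp2, Gbp3, Ifi47 and Iigp1) attack the vacuoles of intracellular microbes. Iigp1 had the widest ratio of the 39 members in CUG960 atria (4.71) and in ventricles of both genotypes (4.60 and 4.29), whereas in control atria Oas3 was wider (4.51 against 4.03) and Gbp2, at 1.44, was below the median of the members. Iigp1 was at 9.89, 39.8 and 37.2 CPM in control atria and at 38.1, 41.8 and 8.88 CPM in CUG960 atria, and at 11.6, 53.5 and 31.9 CPM against 29.2, 47.4 and 11.1 CPM in ventricles. V327 and V123 were thus low in both of their chambers, and the other mice of each genotype were higher. Gbp2 followed the same mice, at 40.2, 57.8 and 52.7 CPM against 55.9, 64.5 and 27.4 CPM in atria, and at 21.4, 46.4 and 33.8 CPM against 22.8, 38.0 and 19.1 CPM in ventricles. Neither gene passed the test of genotype (adjusted P = 0.982 and 0.960 in atria, 0.900 and 0.509 in ventricles). For Iigp1 the atrial interval ran from 0.386- to 2.70-fold, so a change of either direction under these limits was not detectable with 3 mice.

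**Figure D4:**
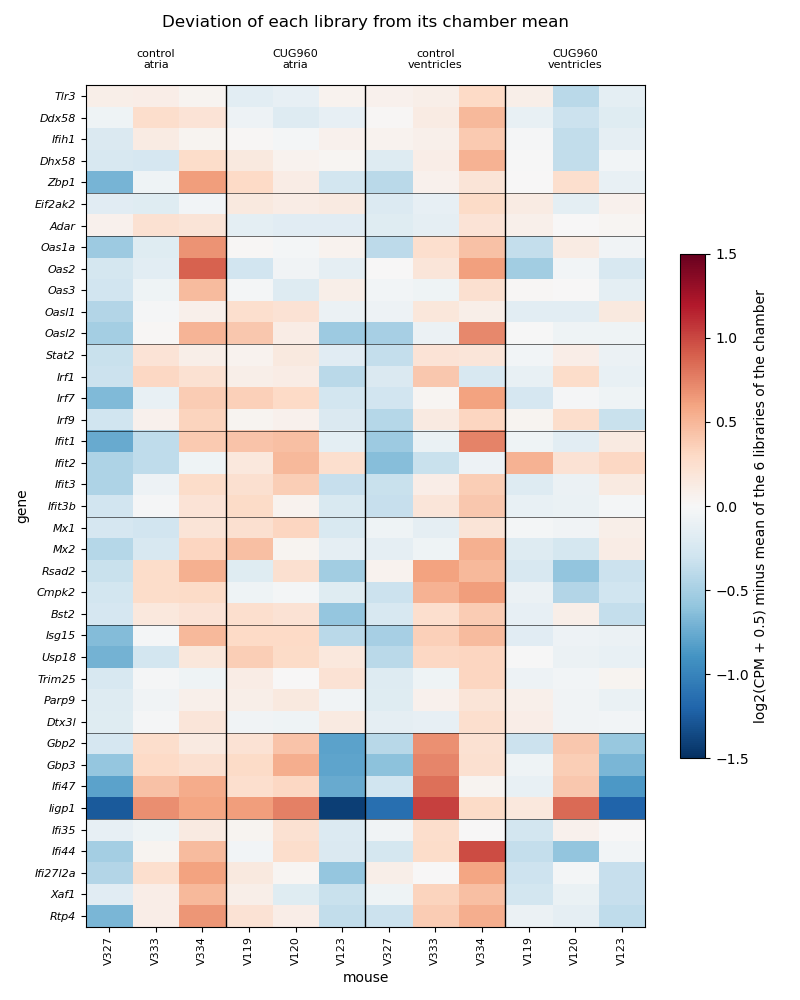
Log2(CPM + 0.5) of each of the 39 genes (rows, by role) minus its mean over the 6 libraries of the same chamber, for the 12 libraries (columns, by group and mouse); red is above and blue below the chamber mean. Iigp1, Gbp3, Ifi47 and Gbp2 are blue in both chambers of V327 and V123, and V334 is red for most genes, with 36 of 39 above the mean in each chamber.

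The interferons that would drive the response were near the floor of the assay. Of 21 interferon genes, 15 had no count in any library, and none had enough counts to be tested. Ifnb1, the type I interferon made first after RNA sensing, had 2 counts in the atria of V119, 1 in the ventricles of V119 and 0 in the other 10 libraries. Ifng, made by lymphocytes, had at most 11 counts, in the atria of V334 and of V119, and Ifna16 had 8 counts in the ventricles of V119. A count of 0 in 116127966 allows up to 3 counts, and these limits cover counting error only. No direction between genotypes was read from them.

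Receptors and signaling genes held no called gene in either chamber (18 of 18 tested). Ifnar1, a chain of the type I receptor, had log2 fold changes of 0.06 (adjusted P = 0.532) in atria and 0.09 (adjusted P = 0.563) in ventricles. Il10rb, a receptor chain that interferon-λ shares with interleukin-10, was at 95.7, 88.4 and 89.2 CPM in control atria and at 113, 115 and 121 CPM in CUG960 atria. It was above all controls in both chambers, by log2 fold changes of 0.35 (adjusted P = 0.00756, edgeR) and 0.46 (adjusted P = 0.0105, edgeR), each under the fold limit and past the P value limit under all 12 alternatives run in each chamber. Socs3, an inhibitor of cytokine signaling, had an atrial log2 fold change of −0.58 (SE 0.15, adjusted P = 0.0404, edgeR), also under the fold limit, and missed the P value limit without any 1 of the 6 mice (adjusted P up to 0.109). Tyk2, Ptpn2 and Ifngr1 had atrial log2 fold changes from −0.33 to −0.23, and each missed that limit when any 1 of at least 5 mice was left out.

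Of 61 other interferon-stimulated genes, 58 were tested in atria and none was called. In ventricles 57 were tested and 2 were called lower, beside 1.76% of all genes. Herc6, the mouse ligase for ISG15, was at 3.69, 4.55 and 5.36 CPM in control ventricles and at 2.73, 2.62 and 3.38 CPM in CUG960 ventricles (log2 fold change −0.64, SE 0.17, adjusted P = 0.0456, edgeR). Phf11d was at 7.93, 10.0 and 9.44 CPM against 6.39, 5.20 and 6.29 CPM (log2 fold change −0.61, SE 0.13, adjusted P = 0.0187, edgeR). The groups were apart for both genes, and each call depended on single mice. Herc6 lost its call without V119, V120, V333 or V334 (adjusted P between 0.090 and 0.141), and Phf11d without V120, V333 or V334 (adjusted P between 0.050 and 0.0631). In atria their log2 fold changes were −0.22 (adjusted P = 0.241) and −0.24 (adjusted P = 0.321). Without a fold limit, 7 genes of this list were lower in ventricles, among them Ifitm3, which blocks viral entry (log2 fold change −0.29, adjusted P = 0.0458, edgeR, and up to 0.154 without 1 mouse), and 4.2% of all genes were.

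MHC class I presentation, which interferon-γ raises, held no called gene in either chamber (19 of 19 tested), with median log2 fold changes of 0.002 and −0.025. A list of genes in the pathway of eIF2α phosphorylation, the reaction that PKR catalyzes, held none either (13 of 13 tested). Besides downstream genes it included Eif2s1, which encodes eIF2α, and the other eIF2α kinases (Eif2ak1, Eif2ak3 and Eif2ak4). Ddit3, which encodes CHOP, averaged 21.7 ± 1.63 CPM in control atria and 27.8 ± 1.83 CPM in CUG960 atria (SD, n = 3 each). The groups were apart, with a log2 fold change of 0.36 (SE 0.08, adjusted P = 0.0208, edgeR) under the fold limit, and without V119, V120, V333 or V334 the P value limit was missed (adjusted P up to 0.0711). Atf4, the main factor of this pathway, had log2 fold changes of −0.11 (adjusted P = 0.680) and −0.12 (adjusted P = 0.488).

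Atria and ventricles were also compared within each genotype. Counts of called members are given beside the share of all genes called, and an excess or shortage among the members was not tested. In control mice, 12 of 39 members were called between atria and ventricles (35% of all genes), 4 higher in atria (Adar, Ifih1, Bst2 and Oasl2) and 8 higher in ventricles (Rsad2, Ifit2, Oas2, Ifi44, Cmpk2, Usp18, Dtx3l and Ifi35), beside 18.5% and 16.5% of all genes. In CUG960 mice, 10 were called (33.1% of all genes), 6 higher in atria (Ifih1, Dhx58, Bst2, Oasl2, Mx1 and Gbp2) and 4 higher in ventricles (Ifit2, Rsad2, Oas2 and Dtx3l), beside 17.3% and 15.8% of all genes. Without V333, 4 members were called in controls, and the share of all genes in that fit is not given here. These fits leave out that both chambers came from the same mice. With the mouse as a block all these calls were kept, and 17 members were called in controls (34.7% of all genes), with Dhx58, Zbp1 and Gbp2 added on the atrial and Oas1a and Mx2 on the ventricular side, and 12 in CUG960 mice (33% of all genes), with Zbp1 and Ifi27l2a added on the atrial side. Rsad2 had the largest chamber difference of the 39, with a log2 ratio of atria to ventricles of −2.31 (SE 0.27, adjusted P = 1.02e-05, edgeR) in controls and −1.89 (SE 0.27, adjusted P = 6.46e-05, edgeR) in CUG960 mice. Ifit2 had ratios of −1.31 (SE 0.16) and −1.38 (SE 0.16), so that the genotypes kept nearly the same chamber difference at different levels. Ifih1 and Adar stood on the atrial side, at 0.61 (SE 0.13) and 0.86 (SE 0.09) in controls and at 1.01 (SE 0.13) and 0.46 (SE 0.09) in CUG960 mice.

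**Figure D5:**
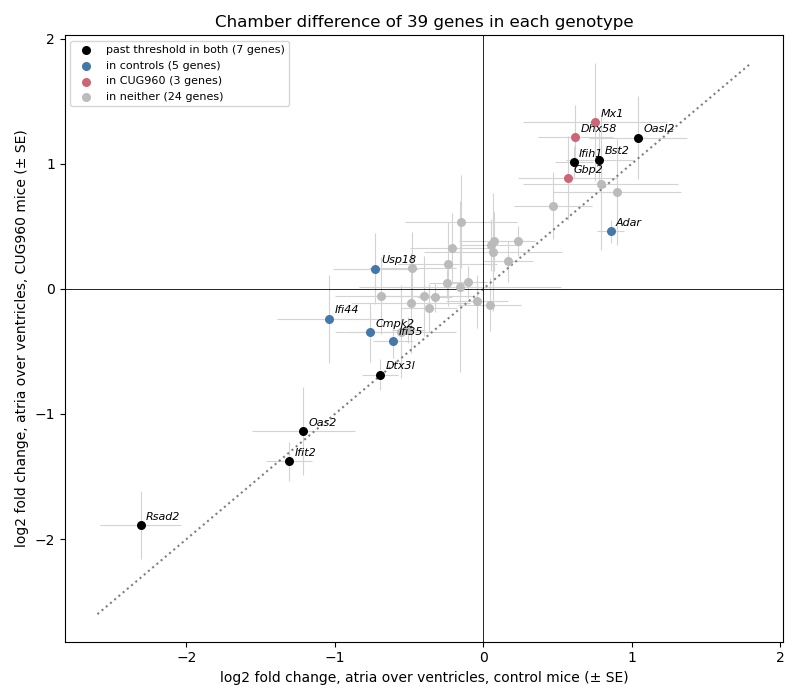
Log2 fold change of atria over ventricles for the 39 genes in control mice (horizontal axis) and in CUG960 mice (vertical axis), each with its SE; the dotted line marks equal values and colors mark where a gene passed the threshold. Rsad2 and Ifit2 lie far toward ventricles in both genotypes, and 34 of 39 points lie above the dotted line.

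None of the 39 members passed the test of a different CUG960 effect in the chambers (adjusted P under 0.05 by edgeR, beside 1.38% of all genes). At an unadjusted P under 0.05 there were 3 (Adar, Ifih1 and Usp18), beside 12.3% of all genes, and DESeq2 called 0 as well. The effect was more positive in atria than in ventricles for 34 of 39 members, with a median difference of 0.249 on the log2 scale, beside −0.002 over all genes, and it was more negative for 5 of 39, beside 50.4% of all genes. Without V334 the first count was 35 of 39 with a median of 0.329. For Ifit2 the difference was −0.07 with a 95% interval of −0.54 to 0.40, and for Rsad2 it was 0.42 with an interval of −0.38 to 1.23.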

How the data were processed

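Poly(A)-selected, stranded libraries of atria and ventricles of 3 MHCrtTA +dox control and 3 CUG960 +dox mice were analyzed, 12 in all. Per the labels, the authors used RSEM 1.3.1 on GRCm38; the deposited table holds its expected counts as whole numbers, not scaled for library size. RSEM divides reads shared between near-identical genes. No rounding was needed (0 values were not whole).

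Counts were analyzed with edgeR 4.0.16 in R 4.3.3 (filterByExpr, TMM, quasi-likelihood test), with Benjamini-Hochberg adjustment over all genes tested: 17650 in atria, 16909 in ventricles and 18327 for fits of all 12 libraries (atria against ventricles in each genotype and the interaction). Genes were called at an adjusted P under 0.05 with a change of 1.5-fold or more, and for the interaction by P alone. Steps were tested on simulated data. Exon lengths and positions are from GENCODE M21, promoters from RefSeq (GRCm38.p6). Alternatives were DESeq2 1.42.0, RLE and upper quartile scaling, keeping all genes regardless of count or only those with 10 or more counts per library, a joint fit of the 12 libraries, a limit of 1.5 on the log2 fold change or none, blocking by mouse, and omitting each mouse in turn. Figures used Python 3.11.15 and matplotlib 3.10.9, and transcripts were aligned with Biopython 1.88.

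The 39 members and the lists were chosen with earlier results of these data known. Values in every library were given for members called in a genotype comparison, for the double-stranded RNA sensors and enzymes, for the 3 members with the highest level per kilobase, for members apart in both chambers and for called genes of the pathway lists. Ifit1, Oas2, Irf7, Isg15, Iigp1, Il10rb, Ddit3 and the library check genes were added after their values were seen. Some genes of the lists are not reported here.

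Atria and ventricles of a mouse carry its number, so the mouse pairs chambers and not genotypes. After subtraction of group means, correlations across genes ran from 0.047 to 0.284 for the chambers of 1 mouse and from −0.343 to 0.13 for different mice of a genotype. Replicates differed by 41.3 to 122 times the counting noise (chi-square per degree of freedom), so mice limit precision more than depth.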

Additional observations from a re-analysis of the deposited data

Results flagged for a closer look

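The lists held 4 genes whose CUG960 effect differed between atria and ventricles by the interaction test (adjusted P under 0.05 by edgeR), and none of them is among the 39 response genes. Slfn5, an interferon-stimulated gene, was at 78.3, 80.8 and 74.6 CPM in control atria and at 89.6, 95.8 and 94.3 CPM in CUG960 atria, and at 111, 107 and 130 CPM against 91.9, 83.9 and 91.6 CPM in ventricles. It was thus higher in every CUG960 atrial library and lower in every CUG960 ventricular library than in the controls, with a log2 difference between the chamber effects of 0.643 (adjusted P = 0.0125). The other 3 genes were markers of cell types. Tagln, of smooth muscle, differed by 1.845 (adjusted P = 0.0445), Bmp10, of atrial cardiomyocytes, by 4.098 (adjusted P = 0.00208), and Nppa by −1.721 (adjusted P = 0.0494). Bmp10 stood at 0.0343 to 0.275 CPM in CUG960 ventricles and at 2.39 to 3.75 CPM in control ventricles, against 1036 CPM or more in every atrial library. Traces of other atrial transcripts also differed between ventricular libraries. Myl7 was at 8.02, 4.98 and 19.3 CPM in controls and at 0.192, 0.304 and 55.9 CPM in CUG960 mice. Nppa went the other way, at 48.6, 54.4 and 84.8 CPM against 86.6, 224 and 151 CPM. The part of such traces in the Bmp10 and Nppa values was not tested.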

How the results depend on the processing

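The 39 genes gave 1 call in atria and 2 in ventricles. Requiring a log2 fold change of at least 1.5 left 0 calls in atria, 0 in ventricles, 1 between the chambers of controls and 1 between those of CUG960 mice, where the counts were 12 and 10. Without a fold limit, 3 were called in atria. In ventricles DESeq2 called 5 and the analysis without a filter on low counts called 5, adding Oas2, Ifi44 and Cmpk2 as lower in each case, and all 12 libraries in 1 fit left 1. Leaving out each mouse gave 0 to 3 calls in atria (0 without V120, V327 or V333 and 3 without V334, which added Ifit1 and Usp18), 1 to 5 in ventricles (1 without V119 or V120 and 5 without V327), 4 to 14 between the chambers of controls (4 without V333) and 7 to 12 between those of CUG960 mice. No call reversed. The interaction gave 0 calls under all 12 alternatives run, and with the mouse as a replicate block it gave 0, with 17 calls between the chambers of controls and 12 between those of CUG960 mice. Scaling moved the median of all genes by less than 0.1 on the log2 scale. With 3 mice a group, an exact permutation test of a single gene cannot go under P = 0.1, and members with wide intervals, such as Mx1, Oas3, Zbp1 and Iigp1, were limited by spread between mice and, for Mx1 and Oas3, also by low counts. Nothing in the labels separates library preparation batches.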
